A study of Mus musculus with 16 samples.

Results

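Ion channel genes were described across 4 groups of mouse colon. Members were taken by symbol, as all genes of the deposited tables whose names mark them as potassium (Kcn), voltage-gated calcium (Cacn) or sodium (Scn) channel subunits, TRPC, TRPM or TRPV channels, ryanodine or IP3 receptors, CLC, HCN, anoctamin, bestrophin, P2X or Piezo channels, or Cftr. This gave 56 of the 5171 distinct genes in the tables. The mouse annotation GENCODE M21 holds 199 protein coding genes with such names, so 28.1% of them were at hand. Each table holds the genes that passed the authors' DESeq2 FDR of 0.05 in 1 comparison, and every member is therefore a gene that differed in at least 1 of them. The other channel genes were not analysed here.

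Ion channels are membrane proteins that let ions pass down their electrochemical gradient when voltage, a ligand, an intracellular messenger, temperature or mechanical force opens them. In the colon, epithelial channels absorb and secrete salt, water, calcium and magnesium, channels of smooth muscle and of the interstitial cells of Cajal pace and drive contraction, enteric neurons fire through voltage-gated sodium, calcium and potassium channels, and leukocytes use channels to control calcium entry and potassium efflux. Auxiliary subunits form no pore and alter the gating or trafficking of the pore subunits.

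Transcriptomes were measured by RNA-seq in whole colon tissue of male C57BL/6 mice. WT mice were compared with mice in which exons of Smarcad1, a chromatin remodeling ATPase, had been removed in the intestinal epithelium by Cre recombinase under the villin promoter (KO), so that the other cells of the tissue kept the gene. The mice of all 4 groups had received an enriched microbiota from another facility, starting 2 weeks before the time of colitis induction. Control mice were untreated, while colitis mice drank 1% dextran sulphate sodium (DSS), which erodes the mucus and injures the lining of the colon, for 15 days. There were 3 libraries each of WT control and KO control, and 5 each of WT colitis and KO colitis, and values given for the 4 groups follow this order.

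The values are the authors' group means on the log2 scale, in RPM, reads scaled to the library total. Values of single libraries were not used, so the means carry no SD, no difference below was set against the spread between mice, and presence in a table is the only call. Library size, recovered from the lowest means, was between 8.005 and 10.1 M reads, and 3 reads per library corresponded to between −1.75 and −1.42 log2 RPM. All 56 members lay above 3 reads in all 4 groups, from 3.17 reads for Scn8a in KO colitis to 4397 reads for Ano1 in KO control. Under 10 reads in at least 1 group were 7 members, namely Ano2, Kcna1, Kcnc4, Kcnn2, Scn8a, Scn9a and Trpv6. Smarcad1 itself was at 44.1% of its WT level in KO control and at 45.6% in KO colitis. The samples are labelled colon, although the series text speaks of small intestine. Of 9 markers of surface colonocytes 8 were listed, from 9.62 to 11.74 log2 RPM in WT control, and of 9 small intestinal markers 2 were, Fabp2 at 9.17 and Fabp6 at 1.22.

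Most channel genes were lower in colitis, in both genotypes. In WT, 46 of 56 members were lower in colitis than in control and 10 were higher, and in KO the counts were again 46 and 10, that is 82.1% lower in each genotype. Over all 5171 genes, 46.0% were lower in WT and 45.7% in KO. The median log2 difference of the members was −0.84 in WT and −0.69 in KO, whereas that of all genes was 0.13 and 0.19. Relative to the median of all genes, the members' medians were −0.97 and −0.88. In each genotype the median channel gene was thus lower in colitis and the median listed gene slightly higher.

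At least 2-fold lower in WT colitis were 20 members (35.7%), beside 13% of all genes. At least 2-fold higher were 4 members, Kcne4, Trpm2, Kcnj2 and P2rx1 (7.14%), beside 18.4% of all genes. In KO colitis, 16 members were at least 2-fold lower (28.6%), beside 12.6% of all genes, and Trpv6 was the 1 member at least 2-fold higher, beside 16% of all genes. Centred on the median of all genes, 25 members were 2-fold lower in WT and 26 in KO, beside 16.5% and 17.8% of all genes, so that the order of the genotypes depends on the scaling. Uncentred, a 2-fold lower level in both genotypes was seen for 12 members, beside 8.43% of all genes. A further 8 members (14.3%) were 2-fold lower in WT alone and 4 (7.14%) in KO alone, beside 4.56% and 4.12% of all genes.

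The table of colitis in WT listed 32 members as lower and 8 as higher, where 26.4% and 36.6% of all genes were so listed. The table of colitis in KO listed 31 members as lower and 5 as higher, beside 33.6% and 44.8% of all genes. Both tables held 20 members (35.7%), beside 42.2% of all genes. The WT table alone held 20 (35.7%) and the KO table alone 16 (28.6%), beside 20.9% and 36.2% of all genes. A gene in 1 table and not in the other was not shown to differ between the genotypes. In whole tissue, fewer cells of a type and less RNA per cell cannot be told apart, which holds for each difference below.

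Across the 56 members, the colitis difference in WT and that in KO, which share no library, correlated with Pearson's r = 0.83 and Spearman's rho = 0.81 (r = 0.91 and rho = 0.93 across all genes). Without Trpv6, r was 0.90 across 55 members. These are correlations across genes, which are not independent replicates. Direction was shared by 54 of 56 members, 45 lower and 9 higher, and differed for Ano9 and Trpv6. Opposite directions were thus seen for 3.57% of the members and for 2.49% of all genes.

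**Figure D1:**
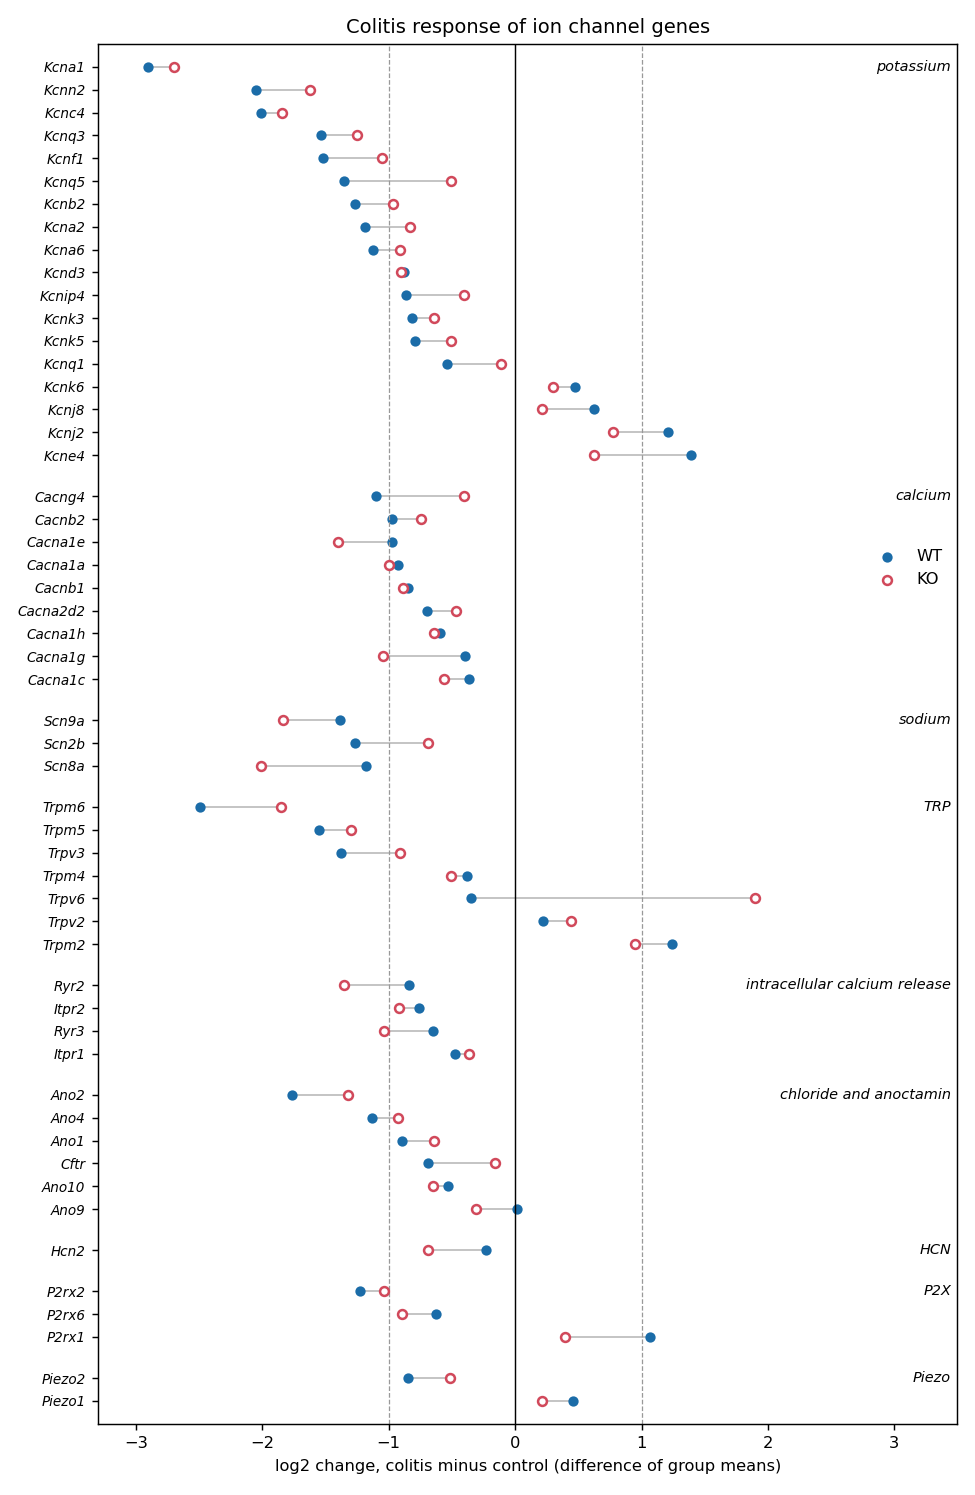
Difference of group means between colitis and control for 53 of the 56 ion channel genes (x axis, log2 scale), grouped by channel class on the y axis, with WT as filled and KO as open points and dashed lines at a 2-fold change. In WT 44 of these genes lie left of 0, Kcna1 farthest at −2.91, and in KO Trpv6 alone lies beyond the 2-fold line on the right, at 1.90.

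**Figure D2:**
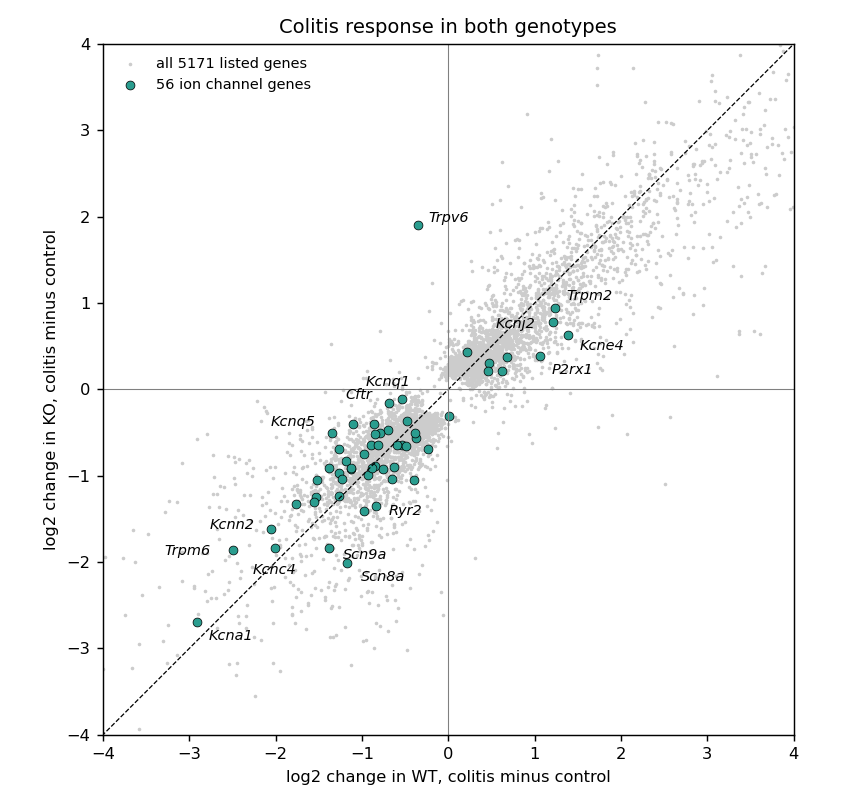
Log2 difference between colitis and control in WT (x axis) against that in KO (y axis) for all 5171 listed genes (grey) and the 56 ion channel genes (green), with the line of equal change dashed. The axes end at 4 and leave out 72 genes, none of them a channel gene, and Trpv6 is the channel gene farthest from the dashed line.

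Trpm6 and Trpv6, the epithelial entry channels for magnesium and calcium, differed from each other in colitis. Trpm6 forms the magnesium channel in the apical membrane of absorptive cells and carries a kinase domain, and it lies on the plus strand at chr19:18749983-18892510 (GRCm38). Its group means were 8.20, 8.52, 5.70 and 6.66 log2 RPM in the 4 groups. Colitis thus went with 0.177 of the control level in WT and 0.276 in KO, and both colitis tables listed the gene as lower. The KO mean was above the WT mean by 0.32 in control and by 0.96 in colitis, and neither table of KO against WT listed it.

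Trpv6, a calcium-selective channel and a classical target of vitamin D signaling, lies on the minus strand at chr6:41620624-41636405 (GRCm38). Its group means were −0.03 log2 RPM in WT control, 0.68 in KO control, −0.38 in WT colitis and 2.58 in KO colitis. They correspond to 9.91, 15.7, 6.14 and 59.0 reads per library in the same order, so that 3 of the groups held few reads and KO colitis stood above them. The colitis difference was −0.35 in WT and 1.90 in KO, a 3.73-fold higher level in KO colitis than in KO control. In colitis the KO mean was 7.79-fold that of WT, a log2 difference of 2.96, which ranked 6th of the 5171 genes. Trpv6 was the only member listed in a table of KO against WT, that of colitis, and the table of colitis in KO listed it too.

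The stretches around the RefSeq start of both genes are shown because these channels carried the largest KO against WT differences in colitis among the members. For Trpm6 the RefSeq start lies upstream of the gene start given above, and the stretch ends before the latter. The Trpv6 stretch spans the start given above. They run from 250 bases before to 50 bases after the start in the RefSeq annotation of GRCm38.p6, 5′ to 3′ on the strand of the gene, Trpv6 at chr6:41636356-41636655 on the minus strand and Trpm6 at chr19:18749480-18749779 on the plus strand. Capitals mark matches, on either strand, to AGGTCA (the half-site of many nuclear receptors, TGACCT on the other strand) and to CACCC (a core of the sites of Krüppel-like factors, GGGTG on the other strand).

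Trpv6: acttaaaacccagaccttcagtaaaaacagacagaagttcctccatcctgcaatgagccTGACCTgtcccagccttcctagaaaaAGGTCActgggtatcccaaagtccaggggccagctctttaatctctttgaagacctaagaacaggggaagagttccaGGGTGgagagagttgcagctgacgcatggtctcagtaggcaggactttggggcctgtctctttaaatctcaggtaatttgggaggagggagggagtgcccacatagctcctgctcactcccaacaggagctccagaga
Trpm6: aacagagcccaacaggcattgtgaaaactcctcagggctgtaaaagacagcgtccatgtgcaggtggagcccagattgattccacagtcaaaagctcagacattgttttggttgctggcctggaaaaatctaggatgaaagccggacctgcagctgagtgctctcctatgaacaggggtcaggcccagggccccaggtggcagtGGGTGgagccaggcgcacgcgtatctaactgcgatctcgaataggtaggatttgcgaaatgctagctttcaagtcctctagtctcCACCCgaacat

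The Trpv6 stretch held AGGTCA at −165 on the gene's strand and at −191 on the other strand, counted from the start, and CACCC at −88 on the other strand. In the Trpm6 stretch were 2 matches to CACCC and none to AGGTCA. Neither held TATAAA (the TATA box) or TTTATG (the core of Cdx sites). The Trpv6 stretch had 1 CpG and 51.3% G and C, and that of Trpm6 had 9 CpG and 53% G and C. Among all 32851 such stretches of RefSeq genes, AGGTCA was found in 16.3%, CACCC in 57.5%, TATAAA in 13.6% and TTTATG in 11.9%. Over the 47 stretches of the 36 members with an entry, the shares were 14.9%, 76.6%, 8.51% and 4.26%, the median CpG count was 9 (7 over all), and the median share of G and C was 58.3% (52.7% over all). A match describes the letters and is not a site.

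Of 14 other genes of calcium and magnesium handling, a list drawn up after the values were seen, 4 were in the tables, and all 4 were lower in colitis in both genotypes. The vitamin D receptor Vdr differed by −0.60 in WT and −0.51 in KO, the plasma membrane calcium pump Atp2b1 by −0.71 and −0.75, the sodium/calcium exchanger Slc8a1 by −0.74 and −0.91, and Egf, whose product stimulates Trpm6 activity, by −1.21 and −0.63. The 3 nearest listed neighbours of Trpv6, from 72272 to 315225 bases away, did not share its pattern. The T cell receptor gene Trbc1 differed between colitis and control by 2.26 in WT and 2.17 in KO, Trbc2 by 3.25 and 2.56, and Sval1 by 0.09 and 0.52.

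The other epithelial transport channels were lower in WT colitis, by between 0.54 and 0.80 for Cftr, Kcnq1 and Kcnk5 and by more for Trpm5. Scaled to exon length (log2 RPKM), the highest members in WT control were the background potassium channel Kcnk5 at 6.30, the calcium-activated chloride channel Ano1 at 6.06, Cftr at 5.39 and Trpm6 at 5.25. Cftr, the cAMP-gated chloride channel of crypt secretion, was at 8.35 log2 RPM in WT control, 8.25 in KO control, 7.66 in WT colitis and 8.09 in KO colitis. Kcnq1, the basolateral potassium channel that sustains the driving force for chloride exit, had means of 6.61, 6.64, 6.07 and 6.53 in the same order. Both were lower in WT colitis (−0.69 and −0.54) and close to their control level in KO colitis (−0.16 and −0.11), and the WT table alone listed them.

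Kcnk5 differed by −0.80 in WT and −0.50 in KO, and Ano10, an anoctamin expressed in epithelia, by −0.53 and −0.65. Trpm5, the calcium-activated cation channel of tuft cells, was at 4.68, 4.38, 3.13 and 3.07 log2 RPM in the 4 groups, a difference of −1.55 in WT and −1.30 in KO. Other tuft cell genes were lower too, Pou2f3 by −1.90 in WT and −1.24 in KO, Dclk1 by −0.85 and −0.61 and Avil by −0.62 and −0.65. They belong to a list of 9 enteroendocrine and tuft cell markers, of which 7 were listed, Trpm5 among them. In each genotype 5 of the 7 were lower (medians −0.85 and −0.65). The other 2 were higher, Pyy by 0.48 and 0.59 and Gcg by 0.27 and 0.45. The part of the tuft cell genes in the difference of Trpm5 was not tested.

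Of the 17 genes in the list of epithelial transport channels 7 were listed, of which 7 were lower in colitis in WT and 6 in KO, with medians of −0.69 and −0.50. Their summed level was 1176 RPM in WT control, 1210 in KO control, 599 in WT colitis and 763 in KO colitis. In colitis the KO mean was above the WT mean for 5 of these 7, with a median difference of 0.42, whereas it was above for 20 of all 56 members. Of 9 surface colonocyte markers, 8 were listed and 7 of these were lower in colitis in each genotype (medians −0.96 and −0.67), and their summed level was 14837, 14308, 8364 and 7826 RPM in the order above. In colitis the KO mean was above the WT mean for 3 of these 8 markers and below it for 5. The median difference was −0.05, with a range from −0.81 to 0.59. None of 7 pan-epithelial markers was listed. The part of the colonocyte markers in the channel differences was not tested.

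**Figure D3:**
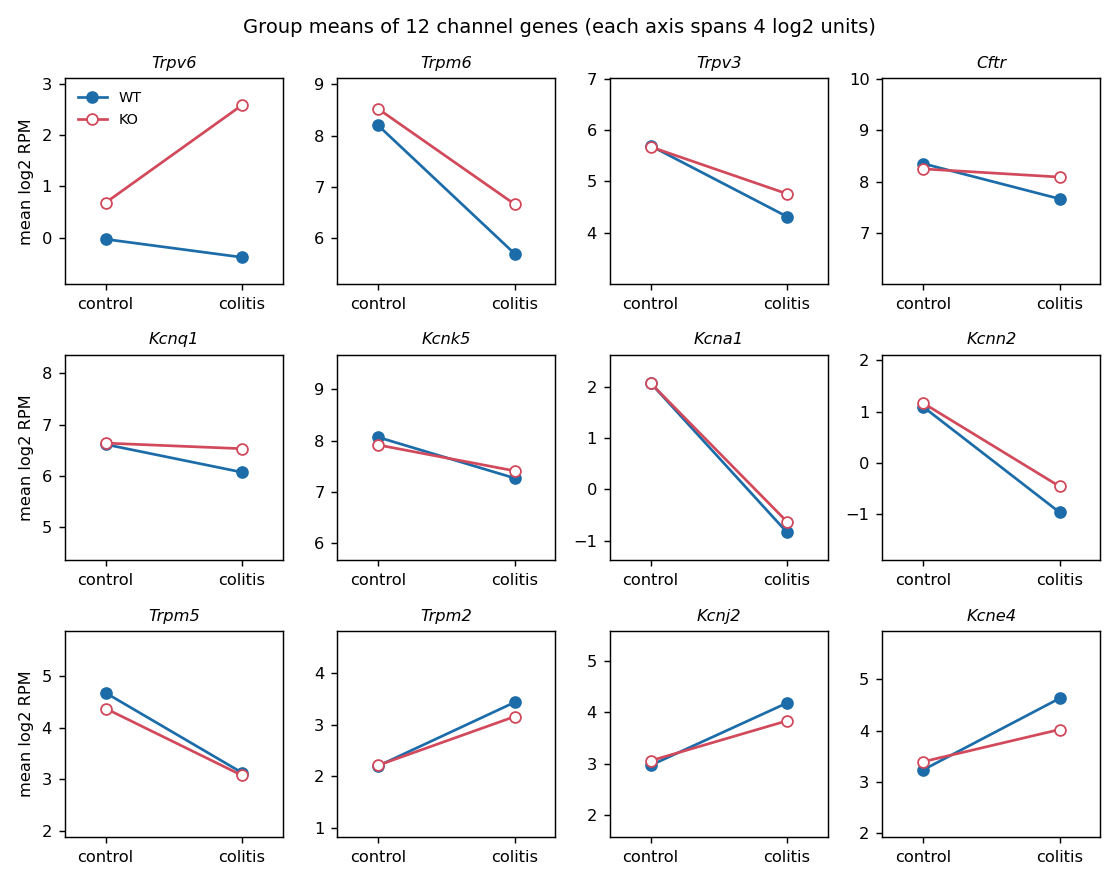
Group means in log2 RPM (y axis) of 12 ion channel genes in control and colitis (x axis), for WT (filled points) and KO (open points), each axis spanning the same 4 log2 units. Trpv6 has its highest mean in KO colitis (2.58), Trpm6 is lower in colitis in both genotypes, and Trpm2, Kcnj2 and Kcne4 are higher in colitis in both.

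The channels of nerve cells were lower in colitis without an exception among those listed. Of the 45 genes in the list of neuronal and glial channels 17 were listed, and all 17 were lower in both genotypes, with medians of −1.18 in WT and −0.995 in KO. At least 2-fold lower were 10 of the 17 in WT and 8 in KO. Their summed level was 206 RPM in WT control, 189 in KO control, 103 in WT colitis and 102 in KO colitis.

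Kcna1, a Shaker type channel that limits repetitive firing of axons, had the lowest colitis difference of all members. It was at 2.07 log2 RPM in both control groups, at −0.84 in WT colitis and at −0.63 in KO colitis, or 42.4, 40.9, 4.48 and 6.37 reads per library. The level in colitis was 0.133 of control in WT and 0.154 in KO. Kcna2 and Kcna6, of the same type, differed by −1.19 and −1.12 in WT and by −0.83 and −0.91 in KO. Kcna1 and Kcna6 lie 61945 bases apart on chromosome 6, and Kcna6 shares 39.6% of its exon length with a gene on the opposite strand.

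Kcnc4, which forms fast inactivating channels, was at 28.5, 20.4, 5.61 and 5.75 reads per library in the 4 groups, a difference of −2.01 in WT and −1.84 in KO. Kcnq3, a subunit of the M-current that damps excitability, differed by −1.53 in WT and −1.25 in KO. Of the other voltage-gated potassium channels of the list, Kcnb2 (delayed rectifier) and Kcnd3 (A-type current) differed by −1.27 and −0.88 in WT and by −0.97 and −0.90 in KO, and Kcnip4, a calcium-binding auxiliary subunit of Kcnd channels, by −0.86 and −0.40. All 12 members of the voltage-gated potassium family, of 40 annotated and with the silent subunit Kcnf1 among them, were lower in both genotypes (medians −1.27 and −0.94).

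Sodium channel pore subunits, which carry the upstroke of the action potential, were represented by 2 members of 10 annotated. Scn9a was at 1.76 log2 RPM in WT control, 1.48 in KO control, 0.38 in WT colitis and −0.36 in KO colitis, and Scn8a at 0.13, 0.37, −1.05 and −1.64. The colitis difference was −1.38 and −1.18 in WT and −1.84 and −2.01 in KO. Scn8a rested on 11.1 reads per library in WT control and on 3.17 in KO colitis, the fewest of any member in any group. Its spread between mice is not known.

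Calcium channels of neurons were lower as well. Cacna1a, the P/Q-type pore of transmitter release, differed by −0.93 in WT and −0.995 in KO, Cacna1e, the R-type pore, by −0.97 and −1.40, and Cacna2d2, an auxiliary subunit, by −0.69 and −0.47. The ATP-gated channel P2rx2 of enteric neurons was at 3.30, 2.99, 2.07 and 1.96 log2 RPM in the 4 groups, a difference of −1.23 and −1.03. P2rx6 differed by −0.63 in WT and −0.90 in KO and shares 13.9% of its exon length with a gene on the opposite strand. Piezo2, the mechanosensitive channel of sensory nerve endings and enterochromaffin cells, differed by −0.84 and −0.52.

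The neuronal channels moved beside markers of enteric neurons. Of 13 such markers 12 were listed, and all 12 were lower in colitis in both genotypes, with medians of −0.92 in WT and −1.02 in KO. Their summed level was 364 RPM in WT control, 312 in KO control, 204 in WT colitis and 160 in KO colitis. None of 6 enteric glia markers was listed. The part of the neuron markers in the channel differences was not tested.

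Channels of smooth muscle and pacemaker cells were lower by smaller steps. Of 27 genes in that list 14 were listed, and 12 of them were lower in colitis in each genotype, with medians of −0.54 in WT and −0.64 in KO. The summed level was 1124, 1152, 776 and 791 RPM in the 4 groups. At least 2-fold lower were 2 of the 14 in WT and 3 in KO.

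Ano1, the calcium-activated chloride channel by which interstitial cells of Cajal generate slow waves, was the most abundant member in reads, at 8.70 log2 RPM in WT control, 8.81 in KO control, 7.81 in WT colitis and 8.17 in KO colitis. It differed by −0.89 in WT and −0.64 in KO, and Kit, the receptor that marks the same cells, by −0.91 and −0.63. The muscle calcium channels Cacna1c (L-type) and Cacna1h (T-type) differed by −0.37 and −0.60 in WT and by −0.56 and −0.64 in KO, and the auxiliary subunit Cacnb2 by −0.97 and −0.75. Trpm4, a calcium-activated sodium-permeable channel, differed by −0.38 and −0.51, and the pacemaker channel Hcn2 by −0.23 and −0.69.

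Intracellular calcium release channels were lower in both genotypes, at 4 of 4 members. The ryanodine receptors Ryr2 and Ryr3 differed by −0.84 and −0.65 in WT and by −1.35 and −1.04 in KO. The IP3 receptors Itpr1 and Itpr2 differed by −0.48 and −0.76 in WT and by −0.37 and −0.92 in KO. Both ryanodine receptors were 2-fold lower in KO and not in WT.

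Kcnn2, a small-conductance calcium-activated potassium channel, had means of 1.09, 1.17, −0.96 and −0.45 log2 RPM in the 4 groups, a difference of −2.05 in WT and −1.62 in KO on 4.12 and 7.20 reads per library in colitis. Kcnq5, an M-type channel of muscle and nerve, differed by −1.35 in WT and −0.51 in KO. Unlike the rest of the list, Kcnj8, the pore of the ATP-sensitive channel of vascular muscle and pericytes, had colitis differences of 0.62 in WT and 0.21 in KO, and the ATP-gated channel P2rx1 of 1.07 and 0.39.

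All 6 listed smooth muscle markers of 13 were lower in colitis in both genotypes, with medians of −0.64 in WT and −0.55 in KO and a summed level of 6100, 5598, 3905 and 3862 RPM. Of the markers of interstitial cells of Cajal 4 of 5 were listed, with medians of −0.74 in WT and −0.59 in KO. In each genotype 3 of the 4 were lower, namely Kit, Etv1 and Ano1 itself. The other, Gja1, was higher in colitis, by 0.40 in WT and 0.17 in KO. The part of these markers in the channel differences was not tested.

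Of the 9 members that were higher in colitis in both genotypes, 6 were in the list of immune cell channels. Of its 20 genes 8 were in the tables, and 6 of these were higher in colitis in each genotype, with medians of 0.47 in WT and 0.35 in KO. Trpm2, the oxidant- and ADP-ribose-gated calcium channel of phagocytes, was at 2.20 log2 RPM in WT control, 2.21 in KO control, 3.44 in WT colitis and 3.16 in KO colitis, a difference of 1.24 in WT and 0.95 in KO. Kcnj2, an inward rectifier that sets the resting potential of macrophages, was at 2.97, 3.06, 4.18 and 3.83, a difference of 1.21 and 0.78. Both colitis tables listed Trpm2 and Kcnj2 as higher.

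P2rx1 was at 1.68, 2.06, 2.75 and 2.45 log2 RPM in the 4 groups, and the WT table alone listed it. Smaller differences were seen for Kcnk6, a two-pore channel of potassium efflux (0.48 in WT and 0.30 in KO), for the mechanosensitive channel Piezo1 (0.46 and 0.21) and for Trpv2 of phagocytes (0.22 and 0.44). Piezo1 shares 24.6% of its exon length with a gene on the opposite strand. Itpr2 and Trpm4, the remaining genes of the list, were lower, as given above.

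Leukocyte markers were higher in the same groups. All 11 myeloid markers were listed and higher in colitis in both genotypes, with medians of 1.43 in WT and 1.26 in KO and a summed level of 703 RPM in WT control, 742 in KO control, 1849 in WT colitis and 1708 in KO colitis. The control means of S100a8, and of S100a9 in KO, were under 3 reads, and as both genes keep the highest places in the list with those means raised to 3 reads, the medians do not change. Of 10 lymphocyte markers 6 were listed, all higher, with medians of 2.35 and 2.57 and summed levels of 18.7, 17.8, 60.3 and 61.3 RPM. The immune cell channels themselves summed to 711, 725, 710 and 644 RPM, since the abundant Trpm4 and Itpr2 were lower. Trpm4 and P2rx1 are also in the list of smooth muscle and pacemaker cell channels, and they count in both lists. The part of the leukocyte markers in the channel differences was not tested.

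**Figure D4:**
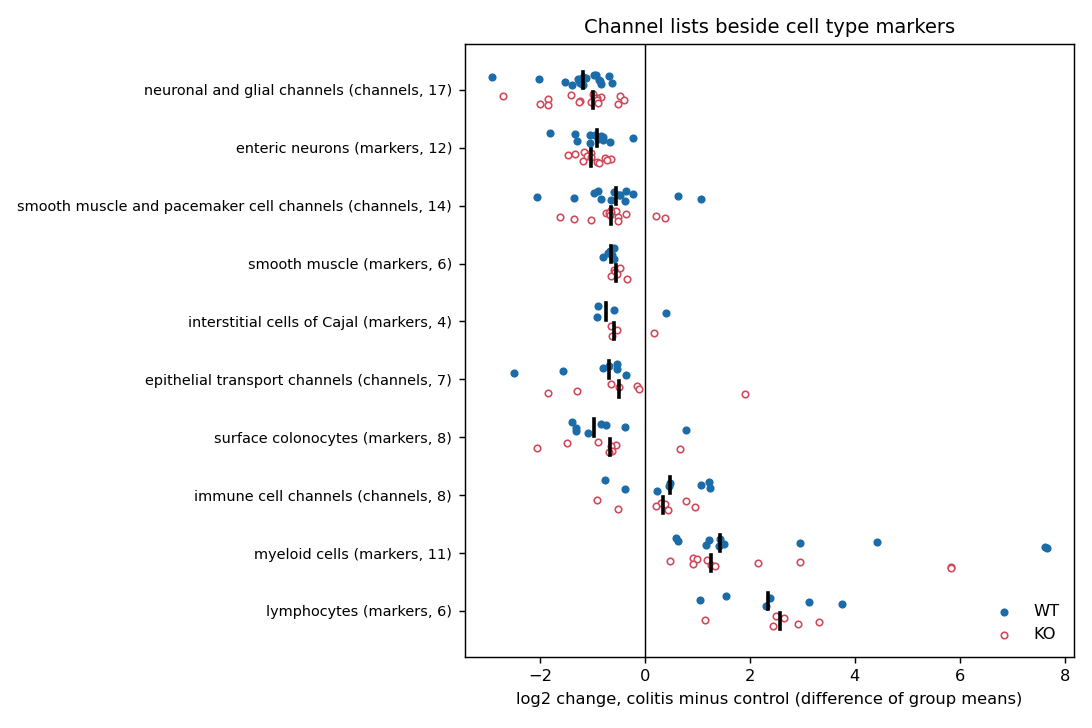
Log2 difference between colitis and control (x axis) for the listed genes of 4 channel lists and 6 lists of cell type markers (y axis, number of listed genes in parentheses), WT as filled and KO as open points, with a black bar at each median. All 17 neuronal and 12 of 14 smooth muscle channels lie left of 0 in each genotype, and 6 of 8 immune cell channels lie right of 0, as do the myeloid and lymphocyte markers.

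A further 12 members were in none of the lists. Kcne4, an auxiliary subunit that dampens voltage-gated potassium channels, was at 3.24 log2 RPM in WT control, 3.40 in KO control, 4.63 in WT colitis and 4.02 in KO colitis, the largest rise of a member in WT (1.39) and a difference of 0.63 in KO. Both colitis tables listed it. Fibroblast markers were higher in the same groups, 6 listed of 7, with medians of 1.00 in WT and 0.60 in KO and summed levels of 2163, 2073, 4132 and 3070 RPM, and their part in the difference of Kcne4 was not tested.

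Kcnf1, a silent subunit that alters other potassium channels, was at 6.70 log2 RPM in WT control and 5.18 in WT colitis, and at 6.61 and 5.56 in KO, a difference of −1.52 and −1.06. Trpv3, a warmth-gated channel best known from keratinocytes, was at 5.69, 5.67, 4.32 and 4.76 in the 4 groups, a difference of −1.38 and −0.91. Ano2, a calcium-activated chloride channel of sensory neurons, differed by −1.77 and −1.32, and Ano4, of the same family, by −1.13 and −0.92. Ano9 was near its control level in WT (0.01, which turns negative when centred on the median of all genes) and lower in KO (−0.31).

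Among the remaining members, the auxiliary calcium channel subunits Cacnb1 and Cacng4 differed by −0.85 and −1.10 in WT and by −0.89 and −0.40 in KO, and the T-type pore Cacna1g by −0.40 and −1.05. The auxiliary sodium channel subunit Scn2b differed by −1.27 in WT and −0.69 in KO. The acid-sensitive background channel Kcnk3 differed by −0.81 and −0.65. By class, 16 of 20 potassium channel genes, 9 of 9 calcium channel genes and 3 of 4 sodium channel genes were lower in each genotype. No TRPC, CLC or bestrophin gene was listed, of 9, 9 and 3 annotated.

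Channel genes with other names and channel partners, in lists of 65 and 33 genes, leaned the same way. Of the first, 22 were listed and 15 were lower in WT and 14 in KO (medians −0.51 and −0.49). Scnn1a, the alpha subunit of the epithelial sodium channel, differed by −0.84 in WT and −0.68 in KO, the beta subunit Scnn1b by 0.81 and 0.49 and the gamma subunit Scnn1g by −0.95 and 0.14. The water channel Aqp8 differed by −1.40 and −0.89, and the nicotinic receptor subunit Chrna3 of enteric neurons by −1.10 and −1.16. Of the partners 15 were listed, 12 lower in each genotype (medians −0.75 and −0.47). Among them were the kinase Sgk1, which raises sodium and potassium channel activity at the membrane (−2.35 and −2.62), and Dpp10, an auxiliary subunit of Kcnd channels (−1.76 and −1.10), whereas Fxyd5, a regulator of the sodium pump, was higher (1.35 and 1.18).

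Between the genotypes, no member differed 2-fold in control tissue. No member was in the table of KO against WT in control, which held 0.522% of all genes as higher and 0.367% as lower in KO and where 1.08% and 0.735% of all genes were 2-fold higher and lower. The KO minus WT difference was within 0.5 of 0 for 54 of 56 members, beside 92.5% of all genes, with a median of −0.01. Beyond that limit were Trpv6 at 0.71 and Kcnb2 at −0.53. Of the 12 members of the voltage-gated potassium family 10 were lower in KO control, with a median of −0.38. All 12 listed enteric neuron markers were lower too, with a median of −0.24, and the part of these markers was not tested. For comparison, 30 of all 56 members and 2536 of all 5171 genes were lower in KO control. Of the channel genes with other names, Scnn1g was 2-fold lower in KO control, at 3.51 log2 RPM in WT and 2.23 in KO, a difference of −1.27. It was not in the table of KO against WT in control. Of that list Gja1 alone was in a table of KO against WT, that of colitis, with a difference of −0.42.

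In colitis, Trpv6 was again apart from the other members. It was the 1 member in the table of KO against WT, as higher, which held 0.696% of all genes as higher and 0.387% as lower, and the 1 member at least 2-fold higher (1.49% of all genes), while none was 2-fold lower (2.9% of all genes). The difference was within 0.5 of 0 for 47 of 56 members, beside 84.3% of all genes. KO was lower than WT for 36 members (64.3%, beside 52.6% of all genes), with a median of −0.09. Next to Trpv6 came Trpm6 at 0.96, Ano2 at 0.73 and Kcnn2 at 0.50 on the higher side, and Scn9a at −0.74, Kcne4 at −0.61, Scn8a at −0.59, Kcnj8 at −0.57 and Ryr2 at −0.51 on the lower side. None of these 8 was in the table. Enteric neuron markers were lower in KO colitis than in WT colitis for 10 of 12, with a median of −0.29, and Ret among them was in the table, at −0.66. Fibroblast markers were lower for 6 of 6 (median −0.44) and smooth muscle markers for 2 of 6 (median 0.01). The part of these markers in the channel differences was not tested.

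All 8 listed immune cell channels were lower in KO colitis than in WT colitis, with a median of −0.19 and none beyond −0.35. The myeloid markers were lower for 9 of 11, with a median of −0.08. At least 2-fold lower in KO were 2 of them, S100a9 at −2.77 and S100a8 at −2.66, and neither was in the table of KO against WT. The part of the myeloid markers in the channel differences was not tested. Fabp6, a small intestinal gene, was higher in KO colitis than in WT colitis by 1.21 and was not in the table of KO against WT, and Fabp2, the other listed gene of that kind, differed by −0.32.

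**Figure D5:**
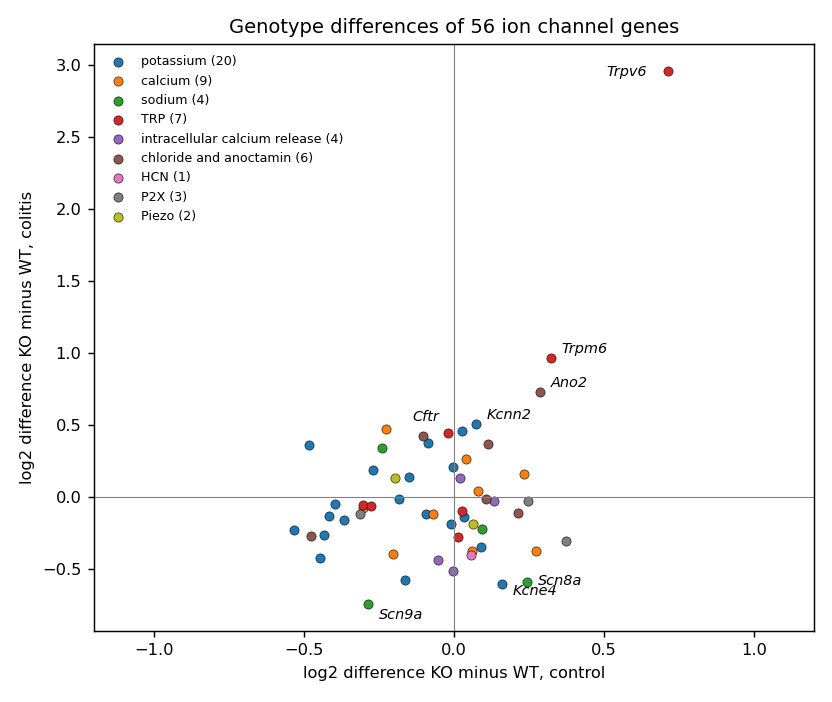
Log2 difference between KO and WT in control (x axis) and in colitis (y axis) for the 56 ion channel genes, coloured by channel class with the number of genes in parentheses. Trpv6 lies at 0.71 in control and 2.96 in colitis, apart from the other 55 genes, whose colitis differences are at most 0.96 in size.

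Whether the response to colitis was smaller in KO depended on the table that had listed the genes. Of the 45 members lower in both genotypes 28 had the smaller difference in KO (62.2%, beside 47.6% of all genes lower in both), and of the 9 higher in both 8 did (88.9%, beside 53.2%). The KO minus WT difference of the response had a median of 0.14 over the members and of −0.02 over all genes. It was 0.21 over the 40 members of the WT colitis table, −0.06 over the 36 of the KO colitis table, 0.21 over the 20 in both, and 0.08 over all members when centred on the median of all genes. The smaller fall was in KO for 27 of the 32 members lower in both genotypes in the WT table (84.4%, beside 75% of all such genes) and for 13 of 30 in the KO table (43.3%, beside 31.5%). By gene, the difference of the response was 2.25 for Trpv6 and 0.85 for Kcnq5. The ryanodine receptors and Scn8a, Scn9a, Cacna1e and Cacna1g were instead lower by more in KO. No interaction test was possible on group means.

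Among members that lie within 1000000 bases of each other, Kcnq1 and Trpm5 are 11720 bases apart on chromosome 7, Kcna2 and Kcnc4 323298 bases apart on chromosome 3, and P2rx1 and Trpv3 252188 bases apart on chromosome 11. P2rx1 was higher and Trpv3 lower in colitis, and Trpm5 was 2-fold lower where Kcnq1 was not. Ano2 lies 600271 bases from Kcna1 on chromosome 6, and both were 2-fold lower in both genotypes. Of these pairs only P2rx1 and Trpv3 went in opposite directions. As 45 of all 56 members were lower in both genotypes, most pairs of members share a direction wherever they lie. A shared direction of neighbours is thus not a result about position.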

How the data were processed

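RNA-seq of whole colon was analysed in 16 libraries, grouped by their sample titles. The authors mapped reads to GRCm38 with HISAT2 2.1.0 (version per the submitters' processing notes), filtered reads over annotated ribosomal RNA because some libraries were contaminated, counted exonic reads in SeqMonk and ran DESeq2 on 2 groups at a time. Library strandedness is not given in the sources used here, so reads of overlapping genes on opposite strands may be mixed. The 4 deposited tables hold, for the genes past an FDR of 0.05, the authors' means per group of log2 RPM, not corrected for length. The deposited p-value column (FDR) of each table was not used, and no fold change of the authors was used. Without values of single libraries no test, SD or interval was computed.

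Differences of group means were computed in Python 3.11.15 with pandas 2.3.3 and numpy 2.4.6. A gene was counted as changed from 2-fold, beside the same count over all 5171 genes. A gene present in several tables had identical means in each. Library size was recovered from the steps of whole reads at the lowest means, with a count of 0 entered as 0.9 read. The calculation was run on simulated data too. These used the same entry for 0, so they could not check the value of 0.9. Floors of 3 reads cover counting error only. Lengths and overlaps were taken from GENCODE M21, and all 56 members matched by symbol.

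Members and gene lists were chosen with earlier results of these data known. Genes were named by rule: all members of a family of up to 4, otherwise the 2 largest rises and falls in WT colitis, all members in a table of KO against WT, the 10 largest changes in each colitis comparison, members whose response differed by at least 1 between genotypes, and a set of colon channels (Cftr, Ano1, Cacna1c and Kcnq1 among those listed). Ano10, Cacna1g, Cacna1h, Kcna2, Kcna6, Kcnb2, Kcnd3 and Kcnq5 fall outside it and were named after their values were seen, as were the genes of lists. The single values of 3 members are not reported here, and they stay in the counts, medians and sums. A fold limit of 1.5, a floor of 3 reads, a filter on low means, centring on the median of all genes, and the genes of 1 table alone were tried as alternatives.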

Additional observations from a re-analysis of the deposited data

How the results depend on the processing

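Of 73 alternatives computed over 13 results, 64 stayed within 0.2 log2 for a median or 1.5 times for a count and 9 did not. The 64 include every alternative with the floor of 3 reads, the filter on low means or the exclusion of names. These acted on no member and so could not differ, and the 64 overstate the stability of the results. The sign turned for 2 medians, both under a restriction to the genes of 1 table: the KO minus WT difference of the response went from 0.14 to −0.06 with the genes of the KO colitis table (0.21 with those of the WT table, 0.08 when centred), and KO against WT in colitis from −0.09 to 2.96. With a fold limit of 1.5 in place of 2, 37 members (20 before) were lower in WT colitis, 34 (16 before) lower and 4 (1 before) higher in KO colitis, 1 (0 before) higher in KO against WT in control, and 3 (1 before) higher and 3 (0 before) lower in KO against WT in colitis. These counts follow from the lower limit. Centring on the median of all genes, which was 0.13 in WT and 0.19 in KO, gave 26 members lower 2-fold in KO colitis, where 16 were lower uncentred, and 25 in WT, and it turned the direction of Ano9 in WT and of Ano10 in KO against WT in colitis. With only the genes of a comparison's own table, the median was −0.91 in KO colitis (36 members), the 2.96 above rested on Trpv6 as the only member, and the table of KO against WT in control held none. The floor of 3 reads and the filter on low means changed no member, and the exclusion of names held to be no channel subunit removed none.

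No paired analysis was possible because the tables give group means and no value of a single library, and leaving out a library could not be run for the same reason. Group means also hide whether 1 library carries a mean, which matters most for Trpv6 (59.0 reads per library in KO colitis). Depth limits the members under 10 reads, Scn8a above all. Genes in no table were not analysed here.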
